A study of Saccharomyces cerevisiae with 12 samples.

Results

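The subtelomeres described here are the outermost 30 kb at both ends of chromosomes II to XVI of budding yeast, Saccharomyces cerevisiae. They were taken from a deposited table of 1000-bp windows, called rows here, as every row whose centre lay within 30 kb of an end, the ends being position 0 and the last row's end of each chromosome. This gave 907 of 12165 rows, at 30 ends, and used position alone. Genomic DNA was sequenced from an eco1-W216G mutant and from a wild-type strain at 0, 20 and 40 min after release from a G1 arrest, as 2 libraries at each time of each strain, making 12. Both strains were grown in YPD and arrested for 2 h with α-factor, the mating pheromone that holds cells before S phase, which was then washed away with protease. The groups compared are eco1-W216G at 20 min, wild type at 20 min, eco1-W216G at 40 min and wild type at 40 min, each as a log2 ratio over a 0-min library, and the design asks how DNA content along the chromosomes differs between the strains in S phase. The labels give a single strain identifier for the mutant and do not say whether the 2 libraries of a group came from separate cultures, so p-values measure only the spread between these libraries.

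Subtelomeres of budding yeast are repeat-rich: a core X element is found at every end, many ends also carry long Y' elements with a helicase-like gene between it and the telomere repeats, and gene families for sugar use, cell wall proteins and metal uptake lie next to them. They are known as late-replicating regions, because the telomere-bound factor Rif1 and the Ku and Sir proteins hold back or delay the firing of nearby origins. Eco1 is an acetyltransferase that modifies Smc3, a subunit of the cohesin ring, as DNA is copied, and the W216G change is known to lower its activity. DNA that has been copied is read more often than DNA that has not, so a row that is ahead of its chromosome has a high ratio and a row that lags has a low one.

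Each column was centred on the median of each chromosome, so that 0 is the level of a typical row of the same chromosome and all values below are log2 ratios relative to it. Of the 907 rows, 184 had a ratio of exactly 0 in at least 1 of the 8 columns, 144 of them in all columns, and were left out, which left 723. The loss followed distance. Within 5 kb of an end 81 of 157 rows were left out, between 5 and 10 kb 44 of 150, between 10 and 15 kb 35 of 150, between 15 and 20 kb 15 of 150, and in the 2 bins beyond that 4 and 5 of 150. Among rows farther than 30 kb from an end on the same chromosomes, 246 of 10941 were left out. Whole reads could be recovered from the ratios, and kept rows within 5 kb of an end held a median of 76.5 to 147 reads per library, against 477 to 916 at 25 to 30 kb and 482 to 915 at 30 to 120 kb. Depth thus thinned towards the end, and 42 of the 76 kept rows within 5 kb were under 100 reads in some library. Library depth, inferred from the fitted scale of the ratios, was 5293237 to 10362815 mapped reads. The recovered reads summed to slightly more in each library, 5502043 to 10730872.

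**Figure D1:**
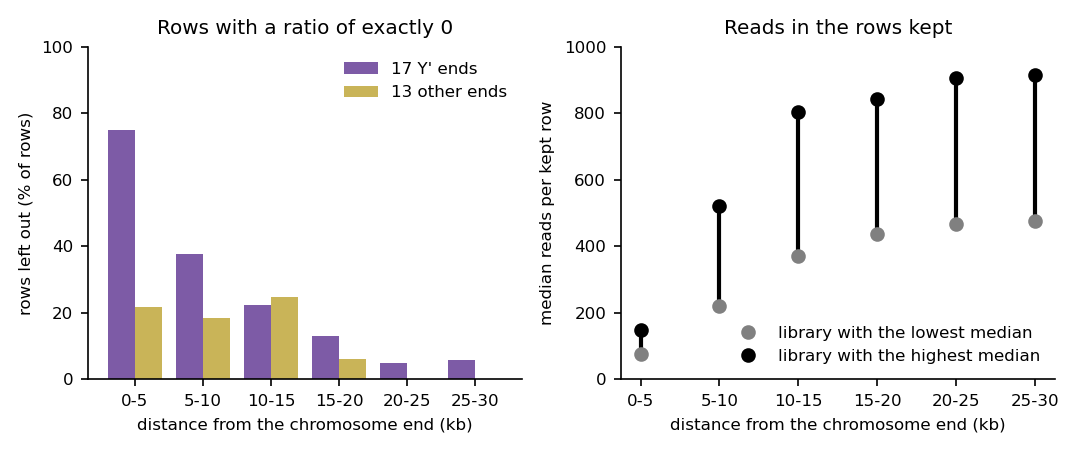
Share of rows left out for a ratio of exactly 0 (left, % of rows, 17 ends with a Y' helicase gene within 10 kb and 13 other ends) and median recovered reads per kept row in the libraries with the lowest and highest median (right), by distance from the end. Y' ends lost 66 of 88 rows within 5 kb and other ends 15 of 69, and the median depth of kept rows levels off beyond 20 kb.

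The label of the regions was borne out by their annotation. By RefSeq's yeast annotation 380 genes overlap the 30 ends, and 24 of them are Y' helicase genes. At 17 ends such a gene lay within 10 kb of the end: II left, IV right, V left and right, VI left, VII right, VIII left and right, IX left, X left, XII left and right, XIII left, XIV left, XV right, and XVI left and right. The other 13 ends had none. Because Y' elements are near-identical copies and how reads with several matches were placed is not given in the sources used here, the values of rows in Y' elements are uncertain as to their end of origin.

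At 40 min the subtelomeres of the mutant were lower than those of wild type, most clearly between 15 and 30 kb from the end. The difference was -0.11 ± 0.014 (limma, SE, n = 2 libraries per group) between 15 and 20 kb, -0.076 ± 0.014 between 20 and 25 kb and -0.097 ± 0.0083 between 25 and 30 kb. On a linear scale these are 0.924, 0.949 and 0.935 times the wild-type ratio. The 3 adjusted p-values (limma, Benjamini-Hochberg over 24 bins of 5 kb that reach 120 kb inward) were 0.00149, 0.00853 and 2.63e-04. In all, 3 of the 6 subtelomeric bins fell, against 5 of all 24 bins (20.8%), and no bin rose. The bins from 10 to 30 kb were lower in the mutant under all 24 settings tried, which include leaving out each library in turn. Between 10 and 15 kb the difference ranged from -0.23 to -0.076 over these settings. Without replicate 1 of the mutant at 40 min the bin within 5 kb was higher in the mutant, by 0.14.

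The values behind each bin, a mean over its ends of the mean over kept rows, were as follows at 40 min. Between 15 and 20 kb the libraries had -0.037 and -0.051 in eco1-W216G, against 0.050 and 0.089 in wild type. Between 20 and 25 kb they had -0.019 and -0.047 in eco1-W216G, against 0.043 and 0.042 in wild type. In both bins the mutant libraries lay below the chromosome median and the wild-type libraries above it, without overlap. Between 25 and 30 kb the values were -0.071 and -0.069 in eco1-W216G, against 0.021 and 0.033 in wild type. This bin holds a single row that lost all its reads in the mutant, described below, and without it the mutant libraries had -0.027 and -0.025 and the wild-type libraries 0.021 and 0.034. The difference was then -0.054 ± 0.0086 (limma adjusted p = 0.00583), which still passed the threshold of 0.05.

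Closer to the end the libraries of a group spread more. Between 10 and 15 kb the mutant had 0.029 and -0.12, against 0.068 and 0.14 in wild type. The groups did not overlap, and the difference of -0.15 was the largest in size of the 6 bins, but did not pass the test (limma adjusted p = 0.0908). With rows of at least 100 reads alone and without the lost region it was -0.13 ± 0.027 and passed (limma adjusted p = 0.00932). Between 5 and 10 kb the libraries had 0.021 and -0.043 in eco1-W216G, against 0.0066 and 0.14 in wild type. Within 5 kb they had -0.026 and 0.11 in eco1-W216G, against -0.049 and -0.0085 in wild type. Both pairs overlapped, and neither bin passed (limma adjusted p = 0.473 and 0.473). The 95% interval of the difference was -0.24 to 0.066 between 5 and 10 kb and -0.051 to 0.19 within 5 kb. The interval between 5 and 10 kb includes falls of the size seen between 15 and 30 kb, while that within 5 kb does not. Within 5 kb the sign also turned with the rows kept, to -0.0096 over rows of at least 100 reads. Over the 6 bins, both mutant values lay below both wild-type values in 4, against 8 of 24 bins in all (33.3%).

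**Figure D2:**
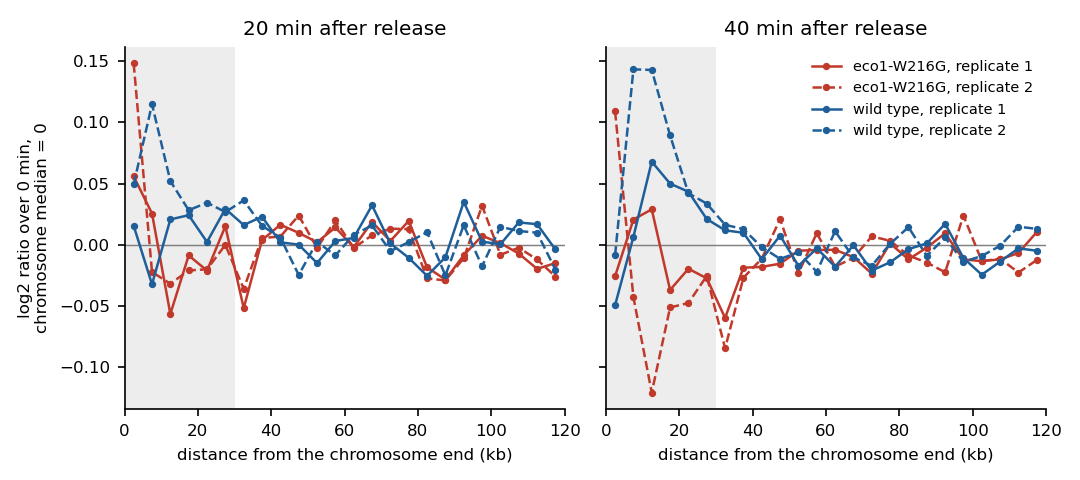
Log2 ratio over 0 min, centred on the chromosome median, against distance from the chromosome end in kb, for each library at 20 and at 40 min, with the lost region of chromosome XV left out and the outermost 30 kb shaded. At 40 min both wild-type lines lie above both eco1-W216G lines from 10 to 40 kb, and farther inward the lines mix.

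At 20 min the strains were closer. Between 15 and 20 kb the libraries had -0.0085 and -0.021 in eco1-W216G, against 0.024 and 0.028 in wild type, and the difference of -0.041 did not pass (limma adjusted p = 0.134). Between 20 and 25 kb they had -0.021 and -0.020 in eco1-W216G, against 0.0024 and 0.034 in wild type, a difference of -0.039 (limma adjusted p = 0.134). Between 10 and 15 kb they had -0.056 and -0.032 in eco1-W216G, against 0.021 and 0.052 in wild type, a difference of -0.080 (limma adjusted p = 0.291). In these 3 bins the mutant lay below wild type without overlap, by amounts that the spread between libraries did not separate from 0. Between 5 and 10 kb the mutant had 0.026 and -0.022, against -0.032 and 0.11 in wild type, and within 5 kb it had 0.056 and 0.15, against 0.016 and 0.049. Within 5 kb the mutant was the higher strain, with a difference of 0.070 that did not pass either (limma adjusted p = 0.359).

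The single subtelomeric bin that passed at 20 min lay between 25 and 30 kb, against 2 of 24 bins in all (8.33%), and rested on the lost row. There the libraries had -0.030 and -0.044 in eco1-W216G, against 0.030 and 0.027 in wild type, a difference of -0.066 ± 0.0083 (limma adjusted p = 0.00246). Without that row the mutant had 0.015 and 3.4e-05 and wild type 0.029 and 0.027, a difference of -0.020 (limma adjusted p = 0.176). Both mutant values lay below both wild-type values in 4 of the 6 bins at 20 min, against 11 of 24 in all (45.8%).

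**Figure D3:**
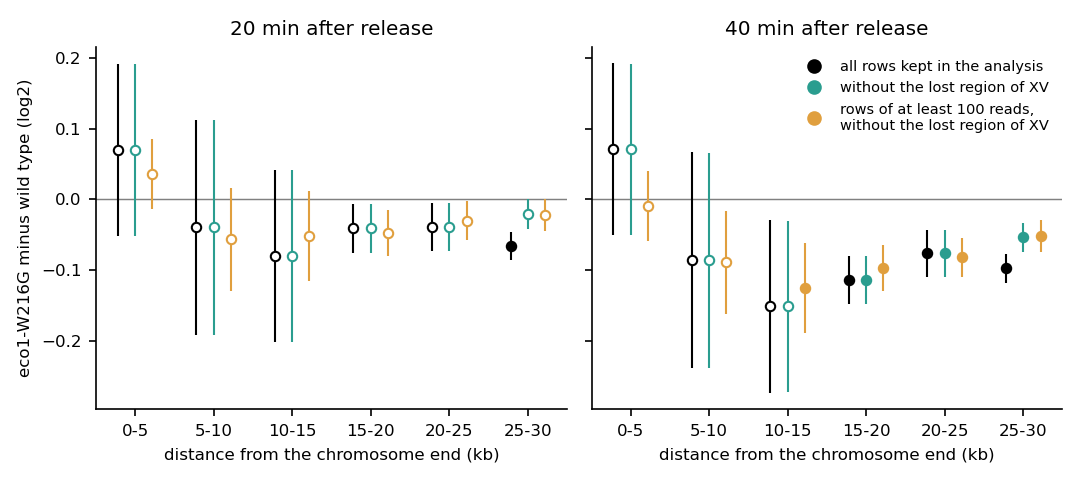
Difference between eco1-W216G and wild type (log2, limma, bars are 95% intervals) for the 6 subtelomeric bins at 20 and at 40 min, under 3 choices of rows, with filled points where the adjusted p was under 0.05. At 40 min the points between 15 and 30 kb are filled under all 3 choices, and at 20 min the filled point at 25 to 30 kb is open once the lost region is left out.

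Set against the chromosome median, the strains lay on opposite sides at 40 min. In wild type, 3 subtelomeric bins were above it, of 3 such bins among all 24 (12.5%). At neither time was a wild-type bin called below it (0 of 24), so these wild-type values do not show late ends. They were 0.070 ± 0.010 between 15 and 20 kb (limma adjusted p = 0.00979), 0.043 ± 0.0097 between 20 and 25 kb (adjusted p = 0.036) and 0.027 ± 0.0059 between 25 and 30 kb (adjusted p = 0.036). Fewer of the 6 bins passed when either wild-type library at 40 min, or either mutant library at 20 min, was left out. The share of all bins in those fits is not given here. The 10 to 15 kb bin stood higher still, at 0.11 ± 0.035, with a spread that kept it from passing (limma adjusted p = 0.144). Over rows of at least 100 reads without the lost region all 6 wild-type bins passed, with 0.086 within 5 kb, 0.076 between 5 and 10 kb, 0.10 between 10 and 15 kb and 0.027 between 25 and 30 kb (limma adjusted p = 0.0052, 0.0389, 0.0052 and 0.0198). Of the 18 bins from 30 to 120 kb 0 passed there.

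In eco1-W216G at 40 min, 2 subtelomeric bins were below the chromosome median, of 4 such bins among all 24 (16.7%). They were -0.044 ± 0.010 between 15 and 20 kb (limma adjusted p = 0.0267) and -0.070 ± 0.0059 between 25 and 30 kb (adjusted p = 2.34e-04, lost row included). Fewer of the 6 bins passed when replicate 2 of the mutant at 40 min, or either mutant library at 20 min, was left out. The share of all bins in those fits is likewise not given. The 20 to 25 kb bin had -0.033 (limma adjusted p = 0.066). With at least 100 reads per row and no lost region, the 3 bins from 15 to 30 kb had -0.044, -0.034 and -0.025, all past the threshold, while the outermost bin stood above the median at 0.077 ± 0.015 (limma adjusted p = 0.012). Of the 18 bins from 30 to 120 kb 2 passed as lower there and 0 as higher. In that filtered set the outermost bin was thus above the median in both strains, and eco1-W216G minus wild type there was -0.0096 ± 0.021. At 20 min 0 of 6 wild-type bins passed against the median by limma, and 2 did at an unadjusted p under 0.05, the 15 to 20 kb bin at 0.026 and the 25 to 30 kb bin at 0.029 (adjusted p = 0.116 and 0.0652). The mutant at 20 min had -0.037 ± 0.0059 in the 25 to 30 kb bin (limma adjusted p = 0.00845), 1 of its 6 bins, against 3 of 24 in all (12.5%), and without the lost region it had 0.0077 (adjusted p = 0.385).

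The same contrast can be put as 1 number per library, the mean of the 6 subtelomeric bins minus the mean of the 18 bins between 30 and 120 kb. At 40 min it was 0.00089 and -0.018 in eco1-W216G, against 0.029 and 0.074 in wild type, the lost region left out. The strains did not overlap, and the difference of means was -0.060, with means of -0.0084 ± 0.013 in eco1-W216G and 0.052 ± 0.032 in wild type (SD, n = 2 each, two-sided exact permutation p = 0.333, the smallest p that 2 against 2 allows). At 20 min it was 0.0048 and 0.011 in eco1-W216G, against 0.0049 and 0.048 in wild type. There the strains overlapped, with a difference of -0.019 (two-sided exact permutation p = 0.667).

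Change over time was compared within each strain, where the 20- and 40-min ratios of a replicate share a 0-min library. Without regard to that sharing, limma called 0 of 6 subtelomeric bins and 0 of 24 bins in all in either strain (0%), with 1 subtelomeric bin per strain at an unadjusted p under 0.05. With the shared library as a block, 4 of the 6 subtelomeric bins passed in wild type, and 1 of the 18 bins from 30 to 120 kb, which was lower. The 4 subtelomeric changes were -0.061 within 5 kb, 0.034 between 5 and 10 kb, 0.069 between 10 and 15 kb and 0.043 between 15 and 20 kb (limma with the block, adjusted p = 1.19e-04, 0.02, 0.00879 and 0.00461). The fall within 5 kb turned to a rise of 0.056 over rows of at least 100 reads and of 0.032 without Y' ends, neither of which passed (limma adjusted p = 0.155 and 0.755). In eco1-W216G, 2 of the 6 bins and 0 of the 18 farther inward passed with the block, at -0.060 within 5 kb and -0.033 between 25 and 30 kb (limma with the block, adjusted p = 1.50e-04 and 0.0493). The first was 0.010 over rows of at least 100 reads (limma adjusted p = 0.728) and passed with the block alone of 24 settings. The difference of the 2 changes, eco1-W216G minus wild type, was -0.073 ± 0.015 between 15 and 20 kb (adjusted p = 0.00117 with the block and 0.253 without) and -0.046 ± 0.015 between 5 and 10 kb (adjusted p = 0.0487 with the block and 0.923 without).

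The 30 ends were then taken one by one, each as the mean of its kept rows, without the lost region. At 40 min eco1-W216G was lower than wild type by difference of means at 28 of 30 ends, with a median difference of -0.077 and a range of -0.15 to 0.033. Over all 403 stretches of 30 kb into which the nuclear genome was divided, 230 were lower and the median was -0.0071. Both mutant libraries lay below both wild-type libraries at 20 of 30 ends, against 26.8% of all stretches, and above them at 0 of 30 ends, against 15.4%. By limma across stretches 0 of 30 single ends passed with the lost region left out, and 1 of 30 with it in, XV right, against 0.495% of stretches. XV right also passed over rows of at least 100 reads without the lost region, as 1 of 27 ends, with a difference of -0.22 (limma adjusted p = 0.0407). In that set both mutant libraries lay below both wild-type libraries at 22 of 27 ends, against 27.3% of stretches. At 20 min 22 of 30 ends were lower, with a median difference of -0.020, and the libraries were separate with the mutant below at 11 ends, against 36.7% of stretches, and with the mutant above at 1 end, against 17.6%. Over rows of at least 100 reads without the lost region they were separate with the mutant below at 18 of 27 ends at 20 min, against 38.1% of stretches, with a median difference of -0.048, and with the mutant above at 2.

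**Figure D4:**
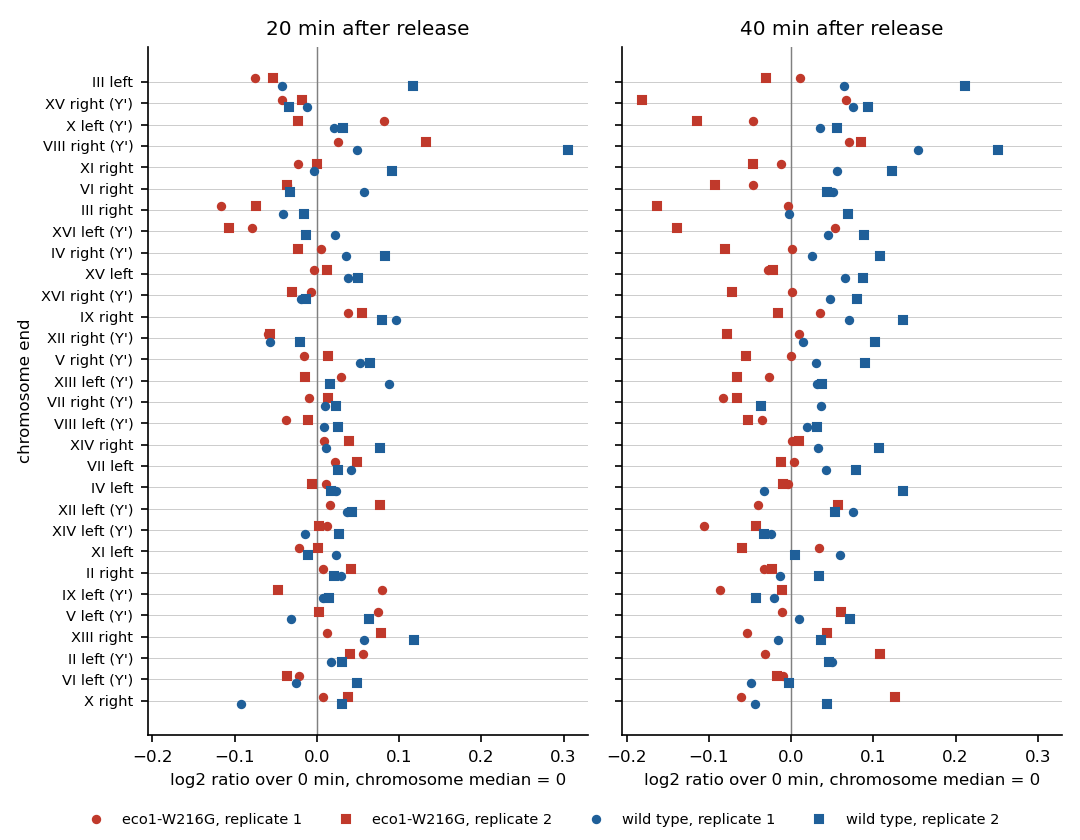
Mean log2 ratio over 0 min of each of the 30 ends (chromosome median = 0, lost region left out), 1 point per library, at 20 and at 40 min, ordered by the difference between eco1-W216G and wild type at 40 min. At 40 min the eco1-W216G points lie left of the wild-type points at 20 ends, while the 2 eco1-W216G libraries differ from each other at ends such as XV right and XVI left.

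The 2 mutant libraries at 40 min did not rank the ends alike. Across the 30 ends Pearson's r between them was -0.23 (Spearman's rho -0.20), against 0.50 for the mutant at 20 min, 0.58 for wild type at 40 min and 0.22 for wild type at 20 min. These are descriptions across ends, which share their libraries. Replicate 1 of the mutant at 40 min followed wild-type replicate 2 at 40 min across ends, with r = 0.71, whereas replicate 2 had r = 0.084 with it. Replicate 2 was also the noisiest column among subtelomeric rows, with a noise SD between neighbouring rows of 0.174, against 0.111 for replicate 1. At XV right the mutant had 0.067 and -0.18 at 40 min, against 0.075 and 0.094 in wild type, and at XVI left 0.053 and -0.14, against 0.045 and 0.088. At these ends replicate 1 of the mutant thus lay with or near wild type and replicate 2 far below. With the lost row in, more ends passed as lower at 40 min once replicate 1 of the mutant was left out than once replicate 2 was. The share of all stretches that passed in those fits is not given here.

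Some ends separated the strains with both libraries close together. At XV left the mutant had -0.028 and -0.022 at 40 min, against 0.065 and 0.087 in wild type. At VI right it had -0.046 and -0.093, against 0.051 and 0.044. At VIII left it had -0.035 and -0.052, against 0.019 and 0.031. The adjusted p-values over all stretches were 0.119, 0.134 and 0.197 (limma), so none passed. The lowest difference at 40 min was that of III left, with 0.011 and -0.030 in eco1-W216G, against 0.064 and 0.21 in wild type. The highest was that of X right, with -0.061 and 0.13 in eco1-W216G, against -0.045 and 0.044 in wild type, where the mutant libraries lay on either side of the wild-type pair. VI left was the other end with a positive difference, 0.012.

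The ends were also ranked by the wild-type mean at 20 min, as a description of these libraries. The 2 libraries behind the ranking had a Pearson's r of only 0.22 across ends, so the order is loose. The 5 highest ends were VIII right, IX right, XIII right, IV right and V right, and the 5 lowest were XVI right, XV right, III right, X right and XII right. VIII right had 0.049 and 0.31, from only 12 kept rows, and its 2 libraries differed more than those of any other end. IX right had 0.097 and 0.079 from 30 kept rows, XIII right 0.057 and 0.12 from 26, and XII right -0.057 and -0.021 from 19. IX right passed against the chromosome median at both times in wild type, with means of 0.088 at 20 min and 0.10 at 40 min (limma adjusted p = 0.0326 and 0.0191), being the sole end to pass at 20 min, where 17 of 404 stretches were above (4.21%). At 40 min VIII right and XV left were also above the median, with means of 0.20 and 0.076 (limma adjusted p = 0.0387 and 0.0191), 3 of 30 ends in all, against 4.21% of stretches. The count of ends that passed at 40 min depended on single libraries. It fell without replicate 2 of wild type at 40 min and rose without either mutant library at 40 min. The share of all stretches in those fits is not given here.

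Within the ends, 145 of the 180 windows of 5 kb had at least 3 kept rows and were tested among 2326 windows of the nuclear genome. At 40 min eco1-W216G was lower in 112 of 145, with a median difference of -0.074, against 1211 of 2326 windows and a median of -0.0047 in all. The libraries were separate with the mutant below in 70 windows, against 21.7% of all windows, and with the mutant above in 9, against 18.7%. By distance, 21 of 25 windows were lower between 10 and 15 kb with a median of -0.16, 22 of 26 between 15 and 20 kb with -0.080, and 23 of 29 in each of the 2 bins from 20 to 30 kb with -0.082 and -0.055. Within 5 kb of the end, where 14 windows could be tested, 6 were lower and the median was 0.042. At 20 min 90 of 145 windows were lower, with a median of -0.037, against 1232 of 2326 and -0.0056 in all.

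**Figure D5:**
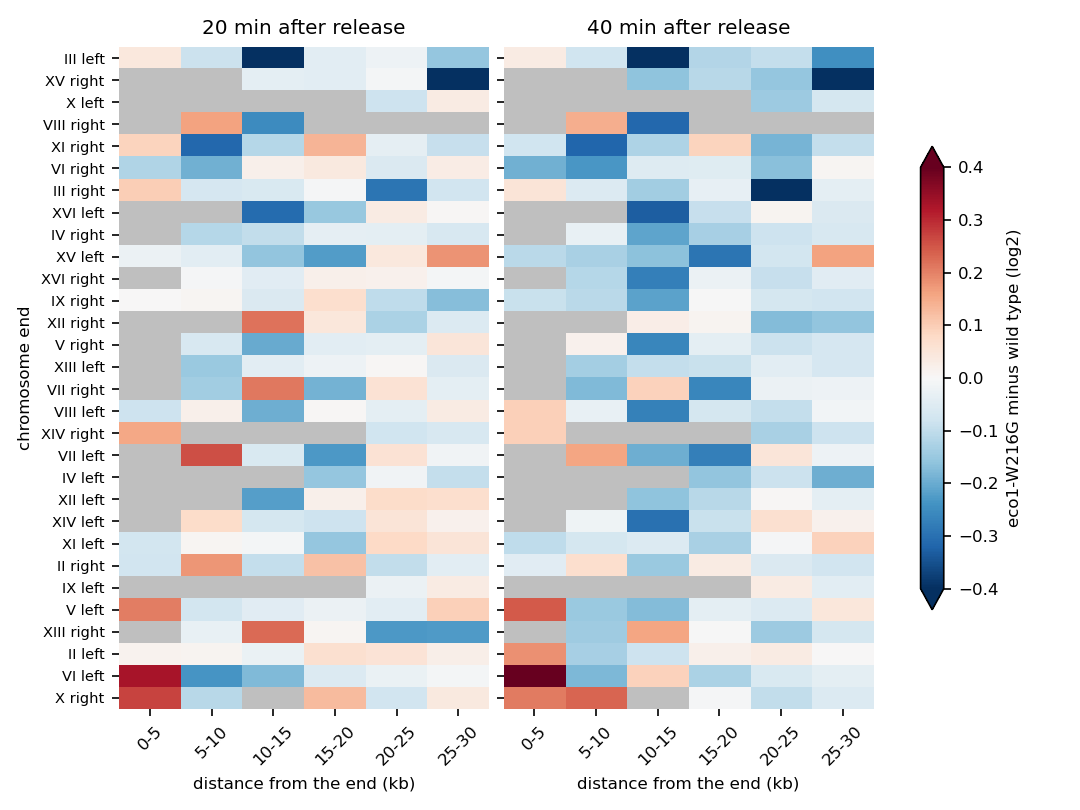
Difference between eco1-W216G and wild type (log2, colour) in each 5-kb window of the 30 ends at 20 and at 40 min, ends ordered as by their difference at 40 min and windows with fewer than 3 kept rows in grey. At 40 min blue windows, lower in eco1-W216G, make up 112 of the 145 tested, and the window of XV right with the lost row exceeds the colour scale at -1.50.

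A single subtelomeric window passed between strains, that of XV right between 25 and 30 kb, at both times, against 0.172% of windows at 20 min and 0.086% at 40 min. It had -1.37 and -1.36 in eco1-W216G, against 0.067 and -0.0036 in wild type at 20 min, and -1.55 and -1.45 in eco1-W216G, against 0.050 and -0.035 in wild type at 40 min. Without the lost region 0 subtelomeric windows passed at either time by limma. More subtelomeric windows passed at 40 min once replicate 1 of the mutant at 40 min was left out, some lower and some higher. The same held at 20 min without either mutant library at 40 min. Those fits kept the lost row and left 1 library in a group. Their share over all windows is not given here. The lost row was centred 29.8 kb from the end, and overlapped in part FRE5, a gene for a putative ferric reductase. In that row the mutant had 942 and 738 reads at 0 min and 0 reads in each of its 4 later libraries, against 637 to 759 reads at 0 min and 499 to 954 later in wild type. Its log2 ratio was -6.61 and -6.52 in eco1-W216G at 20 min, against 0.14 and 0.036 in wild type, and since the mutant held 0 reads there its size is set by the pseudocount. The row is the outermost of 5 adjacent rows of the right arm of XV that held at most a few reads in the mutant after release, the other 4 of which lie beyond 30 kb. The next row outward, at 28.8 kb, was reduced in part, with 672 and 649 reads in the mutant at 20 min, against 1316 and 1002 in the mutant at 0 min, and stayed in when the lost region was left out. Without the right end of XV altogether, the difference between 25 and 30 kb was -0.047 at 40 min (limma adjusted p = 0.0137).

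In wild type at 20 min, 5 subtelomeric windows stood above the chromosome median, of 145 tested, against 91 of 2326 windows in all (3.91%) and 95 in either direction (4.08%), a share close to that of the genome. Named by the gene nearest their centre, with sacCer3 positions, they were the windows of DCG1 (chrIX:410001-415000), MGA2 (chrIX:415001-420000), GLC8 (chrXIII:894001-899000), PRE5 (chrXIII:899001-904000) and GTR1 (chrXIII:25001-30000). MGA2 encodes a membrane-bound activator of fatty acid desaturase transcription, GLC8 a regulator of protein phosphatase 1, PRE5 a subunit of the 20S proteasome and GTR1 a small GTPase of TORC1 signalling. All 5 windows lie between 20 and 30 kb from the end. The DCG1 window had 0.18 and 0.17 in eco1-W216G, against 0.40 and 0.29 in wild type, and its wild-type mean of 0.35 ± 0.044 (limma SE) had an adjusted p of 0.00533. The PRE5 window had -0.030 and -0.055 in eco1-W216G, against 0.22 and 0.15 in wild type. The GLC8 window had 0.024 and 0.043 in eco1-W216G, against 0.19 and 0.33 in wild type. These windows were chosen for their high wild-type values at 20 min, so the mutant values beside them are a description.

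Ends with and without Y' elements were alike in direction at 40 min. Over the whole 30 kb without the lost region, the 17 Y' ends had -0.016 and -0.039 in eco1-W216G, against 0.033 and 0.058 in wild type. The 13 other ends had -0.012 and -0.023 in eco1-W216G, against 0.025 and 0.085 in wild type. The difference between strains was -0.073 at Y' ends and -0.073 at other ends, and in both sets the mutant lay below wild type without overlap in each of the 4 bins from 10 to 30 kb. Within 5 kb, from 22 rows of 10 Y' ends, the mutant had -0.049 and 0.086, against -0.089 and -0.094 in wild type, and lay above it without overlap. The profile by distance differed in detail: between 15 and 20 kb the difference was -0.13 at Y' ends and -0.088 at other ends, and between 20 and 25 kb it was -0.043 at Y' ends and -0.12 at other ends. Whether the sets differ was not tested. With the 13 other ends alone the bins between strains no longer passed at 40 min (limma, adjusted p = 0.0829, 0.0683 and 0.0829 from 15 to 30 kb), at differences of -0.088, -0.12 and -0.054. Left and right ends were also both lower in the mutant at 40 min, with differences of -0.062 over 15 left ends and -0.084 over 15 right ends.

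The boundary at 30 kb is not a step in the data. Of the rows centred in the last kb inside it, the 28 outside the lost region averaged -0.013 in eco1-W216G at 40 min, against 0.022 in wild type. The 29 in the first kb beyond it averaged -0.011 in eco1-W216G, against 0.032 in wild type. Without the right end of XV, the difference at 40 min was -0.044 between 30 and 35 kb (limma adjusted p = 0.0739), -0.031 between 35 and 40 kb (adjusted p = 0.0177) and -0.0091 between 40 and 45 kb (adjusted p = 0.513). The lower level of the mutant thus tapered inward over about the next 10 kb.

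Because each ratio is set over a 0-min library labelled as the same strain, the 0-min libraries themselves were compared, as a description. In the lost row the mutant had 942 and 738 reads at 0 min and 0 in each later library. Whether the mutant's 0-min and later libraries came from the same cells was not tested. Every mutant ratio rests on those 0-min libraries. Within 5 kb of the end the recovered reads of kept rows were far below those of the rest of the chromosome, at -3.37 and -3.52 log2 units relative to the chromosome median in eco1-W216G at 0 min, against -3.34 and -3.27 in wild type at 0 min. Both mutant libraries lay below both wild-type libraries there, by -0.14 on average, while both mutant ratios at 20 min were the higher ones. Between 10 and 25 kb the 0-min levels of the strains differed by -0.0085 to 0.0014 log2 units. Between 25 and 30 kb they were -0.043 and -0.050 in eco1-W216G, against -0.030 and -0.035 in wild type, without overlap and with a difference of -0.014. Over rows of at least 100 reads without the lost region the difference at 0 min was -0.014 between 15 and 20 kb, 0.0084 between 20 and 25 kb and -0.017 between 25 and 30 kb. When both strains were set over the averaged 0-min libraries of wild type, the mean of the 6 bins minus the interior differed by -0.092 at 40 min and -0.051 at 20 min.

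The genes of 12 lists, chosen for the families known to lie in subtelomeres, numbered 102 within the ends, and 84 had a kept row. Taking each gene as the mean of its rows, both mutant values lay below both wild-type values for 25 of the 84 genes at 40 min and above them for 11, against 20.5% and 16.2% of all annotated genes. At 20 min the counts were 19 below and 18 above, against 30% and 21.8%. Genes share rows and many of these families have near-identical copies, so these are counts of position and not of independent loci.

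The Y' helicase genes, which encode the helicase-like protein of the Y' element, rested on few reads: 16 of 24 had a kept row, 23 of their 107 rows were kept and 4 of these 23 rows had at least 100 reads in every library. Their list mean at 40 min was -0.13 and 0.14 in eco1-W216G, against -0.092 and -0.13 in wild type, and the libraries overlapped. At 20 min it was 0.17 and 0.099 in eco1-W216G, against 0.014 and 0.12 in wild type. The best covered of them, YRF1-3 of VII right, had a median of 256 reads per library, with -0.37 and 0.14 in eco1-W216G at 40 min, against -0.017 and -0.11 in wild type. YLL067C of XII left, with 1 kept row and a median of 191 reads, had 0.45 and 0.36 in eco1-W216G at 40 min, against 0.12 and 0.11 in wild type. Of the 16 genes, both mutant values lay above both wild-type values for 5 at 20 min and 4 at 40 min, and below them for 1 and 2.

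The seripauperin genes, a large family of cell wall mannoproteins, had kept rows for 14 of 18 members. Their list mean at 20 min was -0.057 and -0.024 in eco1-W216G, against -0.019 and 0.11 in wild type, without overlap, and at 40 min 0.010 and 0.00092 in eco1-W216G, against 0.0058 and 0.21 in wild type, with overlap. At 40 min both mutant values lay below both wild-type values for 4 of the 14 genes and above them for 2. PAU13 of VIII left, at a median of 452 reads, had -0.014 and -0.28 in eco1-W216G at 40 min, against 0.15 and 0.32 in wild type. The COS genes, which encode endosomal membrane proteins of the DUP family, had 10 of 11 members with kept rows and a list mean at 40 min of -0.046 and -0.087 in eco1-W216G, against 0.069 and -0.041 in wild type. Both mutant values lay below both wild-type values for 2 of the 10 genes and above them for 1, COS7. COS6 of VII right had -0.14 and -0.25 in eco1-W216G, against 0.095 and 0.13 in wild type, separate with the mutant below.

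For the 2 lists of sugar-use genes, the list means at 40 min differed less between strains than those of the seripauperin and COS genes. The differences were -0.046 for the maltose and isomaltase list and -0.056 for the hexose transporters. Those of the seripauperin and COS lists were -0.10 and -0.080. The maltose and isomaltase genes (transporters, activators, maltases and isomaltases) had 10 of 11 members with kept rows and a list mean at 40 min of -0.038 and -0.015 in eco1-W216G, against 0.033 and 0.0065 in wild type. At 20 min the order was the other way, with 0.051 and 0.052 in eco1-W216G, against 0.022 and -0.014 in wild type. At 40 min 4 of the 10 genes were separate with the mutant below and 0 with it above, against 2 below and 4 above at 20 min. Within this list MAL11 of VII right, a maltose transporter gene, had -0.0092 and -0.27 in eco1-W216G at 40 min, against 0.18 and 0.25 in wild type. The hexose transporter genes, with kept rows for 6 of 8 members, overlapped between strains at both times. The aryl-alcohol dehydrogenase genes, with all 6 members kept, had -0.043 and -0.041 in eco1-W216G at 40 min, against 0.049 and 0.065 in wild type, and -0.012 and -0.020 in eco1-W216G, against 0.032 and 0.020 in wild type at 20 min. As a list they were separate with the mutant below at both times, by -0.099 at 40 min and -0.043 at 20 min. By gene, 2 of the 6 were separate with the mutant below at each time and 0 with it above, and the others overlapped.

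FLO10 of XI right, the gene of a flocculin that makes cells adhere, lay above wild type in the mutant. It had 0.23 and 0.23 in eco1-W216G at 20 min, against -0.077 and -0.024 in wild type, and -0.020 and 0.20 in eco1-W216G at 40 min, against -0.076 and -0.15 in wild type. Its 4 rows were well covered, at a median of 864 reads, and the mutant was above wild type without overlap at both times, by 0.28 and 0.20. The 5-kb window around it, between 15 and 20 kb from the end of XI right, had a difference of 0.14 at 20 min and 0.089 at 40 min and did not pass (limma adjusted p = 0.292 and 0.494). The iron uptake genes, for siderophore transporters (ARN1, ARN2 and ENB1), ferric reductases (FRE2 and FRE5) and a cell wall mannoprotein (FIT1), overlapped as a list at both times with the lost row left out, at -0.12 and 0.015 in eco1-W216G at 40 min, against 0.010 and -0.028 in wild type.

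The silent mating loci of chromosome III, which hold unexpressed copies of the mating-type genes, had 3 kept rows. Their mean was -0.021 and -0.27 in eco1-W216G at 40 min, against 0.24 and 0.63 in wild type, and -0.45 and -0.080 in eco1-W216G at 20 min, against -0.075 and 0.33 in wild type. The HML row held a median of 16.5 reads, and the 2 rows of HMRA1 one of 399. At HMRA1 the values were 0.14 and -0.48 in eco1-W216G at 40 min, against 0.25 and 0.52 in wild type. HMR shares its sequence with the expressed mating-type locus in the middle of the chromosome, so its reads may stem from either. Of the remaining lists, the arsenate resistance genes ARR1, ARR2 and ARR3 of XVI right were separate as a list at 40 min, with the mutant below. Their list mean was 0.019 and -0.098 in eco1-W216G, against 0.15 and 0.046 in wild type. By gene, ARR2 and ARR3 were separate with the mutant below, and ARR1 overlapped. The thiamine and pyridoxine genes as a list (7 of 9 with kept rows, 2 of 11 rows of at least 100 reads) and the biotin synthase gene BIO2 overlapped at both times.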

How the data were processed

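Genomic DNA of eco1-W216G and wild-type yeast was sequenced at 0, 20 and 40 min after release from G1, with Nextera XT libraries per the labels' protocols. CASAVA 1.8.2 and Bowtie with the sacCer3 build are named in the submitters' processing notes, without their roles, and read placement and filters are not given in the sources used here. The authors deposited 1 table of 12165 rows of 1000 bp with 8 log2 ratio columns, 1 per strain, time after release and replicate. The authors' smoothed columns, deposited as a score on the same rows, were not used.

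The base of the log and the denominator are not stated. The low values fitted whole reads if each deposited log2 ratio was taken over the 0-min library of the same strain and replicate, with 1 added to reads scaled to library size (RPM). Reads recovered on that basis give the depth: 12162 or 12163 of 12165 rows per strain and replicate had a whole-number solution, and 727 to 1170 of these had more than 1. Where several solutions fitted, the one with the fewest reads at 0 min was taken. The recovered reads were used for depth, a filter and summed-read ratios, and not for a count test.

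Rows with a ratio of exactly 0 in any column were left out and columns were centred on chromosome medians. Distance bins of 5 kb (mean over ends of the mean over rows), windows of 5 kb with at least 3 kept rows and stretches of 30 kb with at least 10 were fitted with limma 3.58.1 (R 4.3.3, lmFit and eBayes) over 4 groups of 2 columns with no covariate, Benjamini-Hochberg adjusted over all bins, windows or stretches, at a threshold of 0.05. The distance bins reach 120 kb inward, 24 in all. Other steps used Python 3.11.15 with pandas 2.3.3, numpy 2.4.6 and scipy 1.17.1.

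The 20- and 40-min ratios of a replicate share a 0-min library by construction, which is the pairing within a strain. Their replicate differences over 2326 windows had r = 0.026 in eco1-W216G and 0.57 in wild type. Between strains the replicate numbers are shared in name alone (r = 0.0022 at 20 min and -0.41 at 40 min).

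On simulated windows for eco1-W216G minus wild type at 20 min, limma called 0 of 50 windows with a log2 shift of 0.1, 20 of 50 at 0.2, 43 of 50 at 0.4 and 49 of 50 at 0.8, with 7 false calls among 2126. Of simulated bins it called 1 of 2 at 0.1 and all 2 at each larger shift. Reads were recovered for 3000 of 3000 simulated rows.

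The subtelomeres, gene lists and tests were chosen with earlier results of these data known. Windows named are those past the threshold, ends named are the 5 highest and 5 lowest in wild type at 20 min and those singled out after their values were seen, and genes come from 12 lists of subtelomeric families, with members singled out after their values were seen. Genes were placed with RefSeq's annotation of the same assembly. Alternatives changed the centring, the scale, the rows, ends or libraries kept, the averaging, the bin size, the denominator and the threshold, and added a replicate block.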

Additional observations from a re-analysis of the deposited data

Results flagged for a closer look

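The change between 20 and 40 min had opposite signs in the strains in 2 distance bins, in both replicates of each, and the difference of the changes passed with the replicate block. Between 15 and 20 kb the change was -0.028 and -0.030 in eco1-W216G, against 0.026 and 0.061 in wild type, and eco1-W216G minus wild type in this change was -0.073 (limma with the replicate block, adjusted p = 0.00117). Between 5 and 10 kb it was -0.0050 and -0.021 in eco1-W216G, against 0.039 and 0.029 in wild type, a difference of -0.046 (limma with the replicate block, adjusted p = 0.0487). Without the block the adjusted p-values were 0.253 and 0.923. For a change between times, the block takes the 20- and 40-min ratios of a replicate as a pair because they share a 0-min library. For differences between strains and levels against the median, the fit with the block instead holds an effect of replicate number common to both strains. Between strains that number is shared in name alone.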

How the results depend on the processing

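Counts below are of the 6 subtelomeric bins or the 145 subtelomeric windows, limma at an adjusted p under 0.05 unless said otherwise. In each case the cause of a change was not tested unless fewer rows, ends or libraries are its construction. The counts over all bins or windows under the same setting are not given beside them. Whether a change was particular to the ends thus cannot be read from these counts. Between strains at 40 min the bins from 15 to 20, 20 to 25 and 25 to 30 kb were below 0 under all 24 settings, counting the one reported and the 8 that leave out a library, and passed in 23, 21 and 22 of them. The count of 3 bins became 5 with a filter on rows beyond 4 MAD from the running median of 25 rows, 5 with 3-kb bins and 0 without Y' ends. At 20 min the count of 1 became 0 with that filter, with rows of at least 100 reads (with or without the lost region), without the lost region, without the right end of XV, without Y' ends, with medians in place of means and with summed reads. It became 2 with equal SD and without the ends of III, V and IX. With medians the 25 to 30 kb bin was 0.0091 at 20 min (adjusted p = 0.549), on the other side of 0, and with the MAD filter the bin within 5 kb was -0.052 at 40 min (adjusted p = 0.00378), against 0.071 as reported.

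With the replicate block, 4 wild-type and 2 mutant bins changed between times, and 2 differed in that change. With equal SD, 1 wild-type bin changed and 1 differed. Against the chromosome median, the mutant's 1 bin at 20 min became 2 with the block and with genome-median centring, and 0 with the MAD filter, medians, summed reads, and without the lost region, XV right or Y' ends. Its 2 bins at 40 min became 4 with at least 100 reads (with or without the lost region), 0 without Y' ends, and 1 with the block, genome-median centring, the MAD filter, 10-kb bins, summed reads, a threshold of 0.01, and without XV right. The 0 wild-type bins at 20 min became 2 with equal SD and 1 with genome-median or chromosome-interior centring, the MAD filter, the wild-type 0-min libraries as denominator, and without Y' ends. The 3 at 40 min became 6 with the MAD filter or at least 100 reads (with or without the lost region), 0 without Y' ends, and 1 with the block, medians, 3-kb bins, a threshold of 0.01, and without III, V and IX.

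The 1 window past at 20 min became 8 with genome-median centring, 3 with equal SD, 2 with 10-kb windows and 0 with the MAD filter, at least 100 reads (with or without the lost region), medians, and without the lost region, XV right or Y' ends. The 1 window at 40 min became 4 with genome-median centring, 2 with the block, equal SD, and without III, V and IX, and 0 with the MAD filter, at least 100 reads (with or without the lost region), and without the lost region, XV right or Y' ends. Subtelomere minus interior moved to -0.051 at 20 min and -0.092 at 40 min over the wild-type 0-min libraries.

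Leaving out 1 library in turn gave 1 to 2 bins between strains at 20 min and 2 to 5 at 40 min, 0 to 2 and 1 to 3 against the median in the mutant, 0 to 0 and 0 to 4 in wild type, and 0 to 1 for the difference in change. The counts of windows between strains moved more than those of bins at both times, and their shares over all windows are not given here. The highest counts, 39 windows at 40 min (8 of them higher), 5 bins (1 higher) and 12 ends, came without replicate 1 of the mutant at 40 min, and 14 windows at 20 min without either mutant library at 40 min. Subtelomere minus interior ranged over -0.041 to 0.0028 at 20 min and -0.083 to -0.037 at 40 min. Where 1 library remains in a group its spread is assumed to be like that of the others. Of the single bins under the other settings, 314 values kept their direction and side of the threshold, 14 passed anew, 11 no longer passed and 21 turned sign. Of these 21, beside the 2 above, the bin within 5 kb turned to -0.010 (MAD filter) and -0.063 (wild-type 0-min libraries) between strains at 20 min, to -0.0096 (at least 100 reads, with or without the lost region) and -0.062 (wild-type 0-min libraries) at 40 min, to 0.024 (MAD filter), 0.056 (at least 100 reads, with or without the lost region) and 0.032 (without Y' ends) for the wild-type change, and to 0.010 (at least 100 reads, with or without the lost region) for the mutant's. The mutant's change turned to 3.2e-04 (MAD filter), 0.025 (without Y' ends) and 0.042 (summed reads) between 5 and 10 kb, and to 0.0078 (equal SD) and 0.0069 (without Y' ends) between 10 and 15 kb. The wild-type change between 25 and 30 kb turned to 0.0015 (genome-median centring), 3.9e-05 (all rows kept) and 0.013 (medians). Leaving out 1 library turned the sign of 7 bin values, none past the threshold: -0.11 to 0.034 between strains at 20 min at 5 to 10 kb, -0.040 to 0.11 for the wild-type change there, -0.0071 to 0.0041 for it at 25 to 30 kb, and for the mutant's change -0.13 to 0.0069 within 5 kb, -0.044 to 0.019 at 5 to 10 kb, -0.077 to 0.073 at 10 to 15 kb and -0.027 to 9.5e-04 at 20 to 25 kb. The filter on unique 50-mers was not run, since no genome was used here.

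With 2 libraries a group, simulated shifts of 0.1 in 5-kb windows were called in 0 of 50, so shifts of the size of the bin differences are below what single windows can show. Rows within 5 kb are few and thinly read, and their placement among repeats is uncertain. A ratio over the chromosome median cannot tell a late end from an early interior, and fewer cells in S phase and slower copying in each cell cannot be told apart.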
